A study of Mus musculus with 18 samples.

Results

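The IFIT and OAS genes encode interferon-induced proteins that act on foreign RNA. 9 of them were examined here, namely Ifit1, Ifit2, Ifit3, Oas1a, Oas1b, Oas2, Oas3, Oasl1 and Oasl2, each taken by its symbol from a table of read counts for 24514 genes, whatever its values. All 9 were found and all 9 passed the filter on low counts, 3 being IFIT and 6 being OAS family genes. The counts came from iMGT-Myh6-eGFP-MEF cells, a line of mouse embryonic fibroblasts in which doxycycline switches on the cardiac transcription factors Mef2c, Gata4 and Tbx5 (together MGT) and in which eGFP under the cardiac Myh6 promoter reports conversion toward cardiomyocytes. Cells were transfected with a control siRNA (siControl) or with an siRNA against Chst7 (siChst7), a sulfotransferase that modifies chondroitin chains. Doxycycline at 1 µg/mL followed a day later, and cells were collected before it (day 0) or 1 or 3 days after it. That gave 6 groups of 3 libraries, each library pooled from 40 wells and labelled as a biological replicate of this single line. Every group carried the factors and the reporter and had been transfected, and the day 0 groups of both siRNAs had seen no doxycycline. Since the groups collected at days 1 and 3 all had doxycycline, the factors, time in culture and time since transfection cannot be told apart in any change over days. No group had Chst7 restored, so loss of Chst7 and other effects of its siRNA cannot be told apart either. Knockdown below names the comparison of siChst7 with siControl.

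Interferons bound to their receptors activate the kinases Jak1 and Tyk2, and a transcription factor complex that includes Irf9 then binds the interferon-stimulated response element in front of its target genes. IFIT proteins bind viral RNA, Ifit1 in particular RNA whose cap lacks ribose methylation. OAS enzymes are switched on by double-stranded RNA and make short oligoadenylates, which set off the decay of RNA in the cell. Fibroblasts are a classic responder cell for interferon and hold low levels of many of these transcripts without infection.

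The 3 IFIT genes lie in 1 cluster on chromosome 19, with Ifit2 at chr19:34550550-34576534, Ifit3 at chr19:34583119-34588982 and Ifit1 at chr19:34640889-34650009, all on the plus strand (RefSeq, GRCm38.p6). On chromosome 5, Oasl2 (chr5:114896926-114912245, plus strand) and Oasl1 (chr5:114923143-114937911, plus strand) are neighbours, and Oas2 (chr5:120730333-120749886, minus strand), Oas3 (chr5:120753098-120777684, minus strand), Oas1b (chr5:120812635-120824163, plus strand) and Oas1a (chr5:120896256-120907544, minus strand) form a second group. RefSeq lists Oas1b as a transcribed pseudogene on this assembly. Many laboratory strains carry a stop codon in this gene, whose full-length form gives resistance to flaviviruses.

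By symbol, 7 of the 9 genes (all but Oas1b and Oas2) matched promoter windows of 300 bases from RefSeq, 250 before and 50 after an annotated start (GRCm38.p6). Both strands were searched for the core of the interferon-stimulated response element, spelled GAAA, then any 2 bases, then GAAA. The stretches that hold it are shown because they are the letters that the Irf9 complex is known to read. The core is in capitals, in its own direction or as its reverse complement, and each stretch is written in the direction of the gene.
Ifit1, chr19:34640785-34640813, plus strand: TTTCACTTTCcagtctcagTTTCAGTTTC
Ifit3, chr19:34583363-34583392, plus strand: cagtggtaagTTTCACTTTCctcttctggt
Ifit3, chr19:34583397-34583426, plus strand: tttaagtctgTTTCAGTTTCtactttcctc
Oas1a, chr5:120907523-120907552, minus strand: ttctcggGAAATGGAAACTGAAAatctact
Oas3, chr5:120777715-120777744, minus strand: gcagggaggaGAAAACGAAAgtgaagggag

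Ifit1 and Ifit3 each held 2 separate cores, Oas1a held 2 that overlap, and Oas3 held 1. Of all 32851 windows in the RefSeq table, 3.44% held at least 1 core and 0.225% held 2 or more. The windows of Ifit2, Oasl1 and Oasl2 did not hold these letters. The starts used for the windows differ from the ends of the gene spans given above, and both Ifit3 stretches lie inside its span. Sequence outside the windows was not searched, so a core there would be missed. Both stretches shown for Ifit3 also stand, letter for letter, in the window of its near copy Ifit3b, at chr19:34607759-34607788 and chr19:34607793-34607822 on the plus strand. The STAT dimer element TTCNNNGAA, which reads the same on both strands, was in 1 window of Ifit2 and in that of Oas1a, against 8.3% of all windows.

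Library totals ran from 30590742 to 50021142 counts. Chst7 stood at 18.6 to 40.4 CPM (counts scaled to a common library size) in the siControl libraries and at 0.238 to 2.96 in the siChst7 libraries, with no overlap. The siChst7 day 3 libraries differed from siControl in a way that followed gene length (rank correlations from -0.33 to -0.25 between length and the log2 difference), and replicate 3 of siChst7 day 0 did so in the other direction (0.21). Of the 8 fibroblast markers, Col1a1 stood at group means of 1794 to 3080 CPM, while Thy1 reached a group mean of 0.231 CPM at most. From day 0 to day 3 in siControl, 5 of the 7 tested were called lower and 2 higher by the test given below. All genes had 39.5% and 33.9%. Among those lower, Dcn went from a mean of 169 CPM to 7.78 and Col3a1 from 59.6 to 12.4. The 2 higher were Vim, from 3909 to 5967, and Col1a1, from 1794 to 3080.

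Before induction, the control cells held clear levels of most of the 9 transcripts. Per kilobase of gene length, the scale on which genes can be compared, the siControl day 0 means were 23.9 CPM for Ifit1, 19.2 for Oasl2, 15.4 for Oas1a, 11.3 for Ifit2 and 11.0 for Ifit3. Oasl1 (5.63), Oas1b (5.32) and Oas2 (3.17) were lower, and Oas3, the longest transcript of the set, was lowest at 0.371. Over the 6 groups, 7 of the 9 genes had their highest mean CPM in siControl day 0 and 7 had their lowest in siControl day 3. The exceptions at the high end were Ifit2, highest in siChst7 day 3, and Oas3, highest in siChst7 day 1. Those at the low end were Ifit2 and Ifit3, lowest in siControl day 1.

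**Figure D1:**
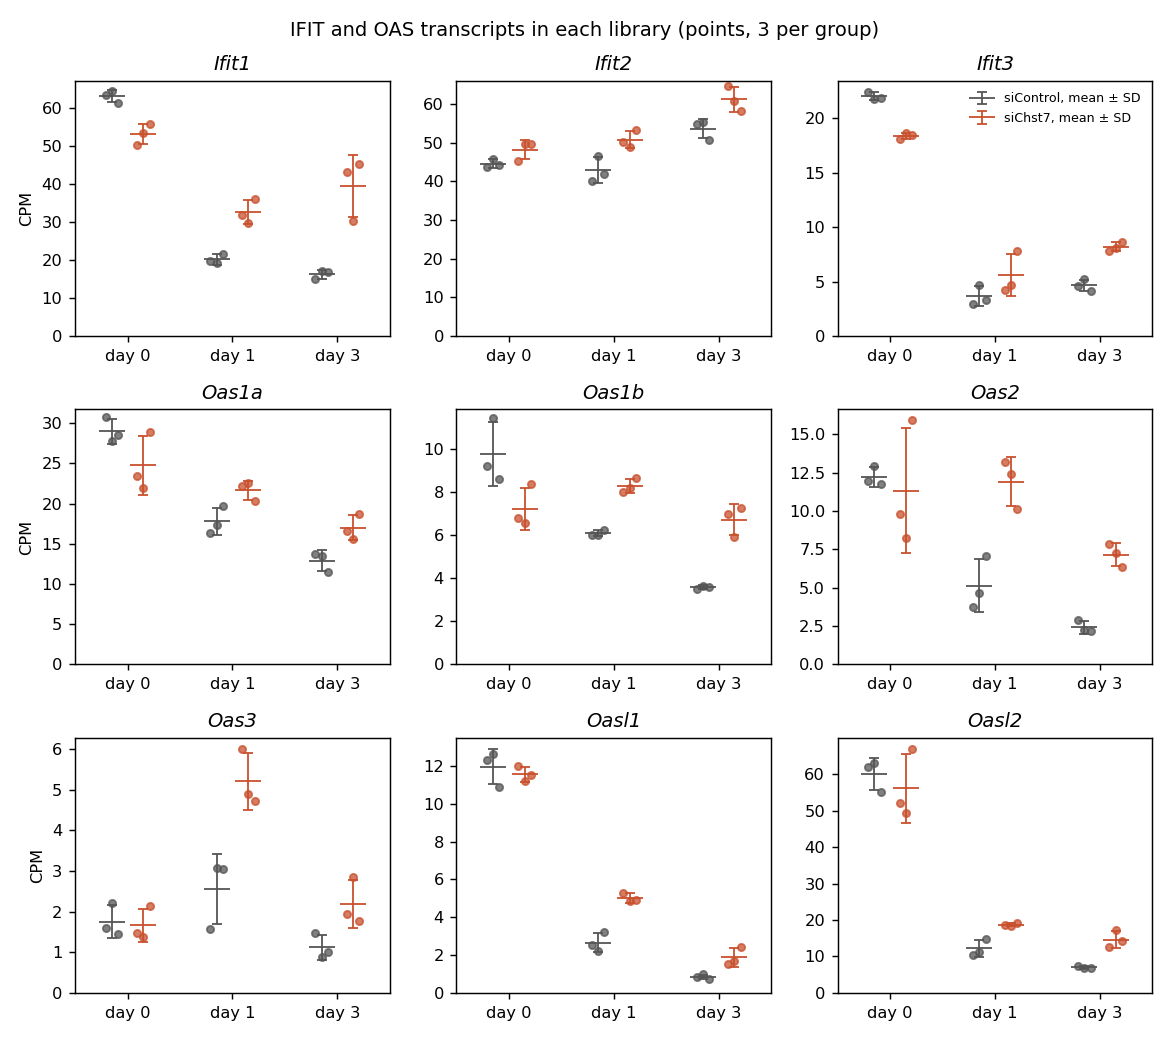
CPM of each gene in the 18 libraries (points), with the mean and SD of the 3 libraries of a group, siControl in grey and siChst7 in orange, by day on the x axis. In Ifit1 the siControl libraries fall from 61.4 to 64.4 CPM at day 0 to 14.9 to 17.0 at day 3, while the siChst7 libraries at day 3 lie at 30.2 to 45.1.

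In cells with the control siRNA, most of these transcripts fell within a day of doxycycline and fell again by day 3. Oasl1, which lacks enzyme activity and is known to hold back translation of the transcription factor Irf7, stood at 12.3, 12.6 and 10.9 CPM at day 0, at 2.53, 2.21 and 3.20 at day 1, and at 0.847, 0.975 and 0.735 at day 3. The 3 days did not overlap, and the fall from day 0 to day 3 was 13.9-fold (log2 change -3.80 ± 0.16, SE; edgeR adjusted p = 1.506e-15). Oasl2, an OAS-like protein with ubiquitin-like domains, went from 62.0, 63.2 and 55.1 CPM through 10.5, 11.2 and 14.9 to 7.51, 6.74 and 6.70, again with no overlap between days (-3.11 ± 0.13 from day 0 to day 3). Ifit3 was at 22.4, 21.7 and 21.8 CPM at day 0. At day 1 it stood at 2.98, 4.68 and 3.34, and at day 3 at 4.63, 5.19 and 4.16. It was lower by 2.58 ± 0.16 on the log2 scale at day 1 already, and the libraries of days 1 and 3 overlapped.

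With edgeR's quasi-likelihood test and Benjamini-Hochberg adjustment over 13802 genes at 0.05, 7 of the 9 genes were lower at day 1 than at day 0 in siControl cells, where 30.8% of all genes tested were called lower. Their median log2 change over all 9 was -1.25, against -0.00 over all genes. From day 1 to day 3, 7 were lower and Ifit2 was higher (32.3% and 22.8% of all genes), with a median of -0.76. From day 0 to day 3, 8 were lower and Ifit2 was higher (39.5% and 33.9% of all genes), with a median of -1.95 against -0.05 over all genes. The called falls at day 3 ranged from -3.80 for Oasl1 to -0.66 for Oas3, whose call was lost under other scalings (adjusted p = 0.0600 with DESeq2 size factors) and without any of siControl day 0 replicate 2 (0.194), siControl day 3 replicate 2 (0.153) or siControl day 3 replicate 3 (0.105). The Ifit1 fall from day 1 to day 3 (-0.30 ± 0.11) was lost under 4 other scalings and filters and without siControl day 1 replicate 3 (adjusted p = 0.111) or siControl day 3 replicate 1 (0.106).

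Ifit2 and Oas3 followed their own courses. Ifit2, which restricts several RNA viruses, stood at 43.7, 45.9 and 44.2 CPM at day 0, at 40.1, 46.6 and 42.0 at day 1 and at 54.9, 55.3 and 50.7 at day 3 in siControl cells. Day 3 lay above both earlier days in every library (0.27 ± 0.06 against day 0, edgeR adjusted p = 0.0003915). Oas3, the OAS enzyme known to be most sensitive to long double-stranded RNA, was low throughout, at 1.59, 2.21 and 1.45 CPM at day 0, 1.57, 3.07 and 3.05 at day 1 and 1.47, 0.890 and 1.01 at day 3. Its day 0 and day 1 libraries overlapped and the difference was not called (0.55 ± 0.26, edgeR adjusted p = 0.0709).

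In siChst7 cells fewer of the genes fell within the first day. At day 1, 4 genes were lower than at day 0 (Ifit1, Ifit3, Oasl1 and Oasl2) and Oas3 was higher, beside 30.5% and 29.5% of all genes. Oas1a, Oas1b and Oas2, which were called lower in siControl cells over the same interval, had log2 changes of -0.19 ± 0.10, 0.20 ± 0.11 and 0.07 ± 0.19 and were not called. Oas3 rose from 1.47, 1.38 and 2.14 CPM to 6.01, 4.88 and 4.71, with no overlap (1.65 ± 0.24, edgeR adjusted p = 3.754e-06).

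From day 1 to day 3 in siChst7 cells, the 3 IFIT genes were higher and the 6 OAS genes were lower (31.7% and 33.5% of all genes), with no test made between the families. Under upper quartile scaling or library totals 4 of the 6 OAS genes were called lower, since Oas1b (adjusted p = 0.0961 and 0.124) and Oasl2 (0.0676 and 0.0914) were lost. The IFIT changes ran from 0.27 to 0.55 and those of the OAS genes from -1.43 to -0.31. Several of these were small against their errors. Ifit1 (0.27 ± 0.10) lost its call when only the compared libraries were fitted (adjusted p = 0.0747) and without siChst7 day 1 replicate 1 (0.0711) or 2 (0.127) or siChst7 day 3 replicate 1 (0.139) or 3 (0.110). Oas1b was also lost without siChst7 day 1 replicate 3 (0.0745) or siChst7 day 3 replicate 2 (0.128), and Oasl2 without siChst7 day 3 replicate 1 (0.102) or 3 (0.0541). At day 3 against day 0, Ifit2 was higher and 6 genes were lower, beside 37.9% and 37.8% of all genes. Oas1b and Oas3 were not called, and Oas2 (-0.66 ± 0.20) lost its call without siChst7 day 0 replicate 3 (-0.34, adjusted p = 0.0883).

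**Figure D2:**
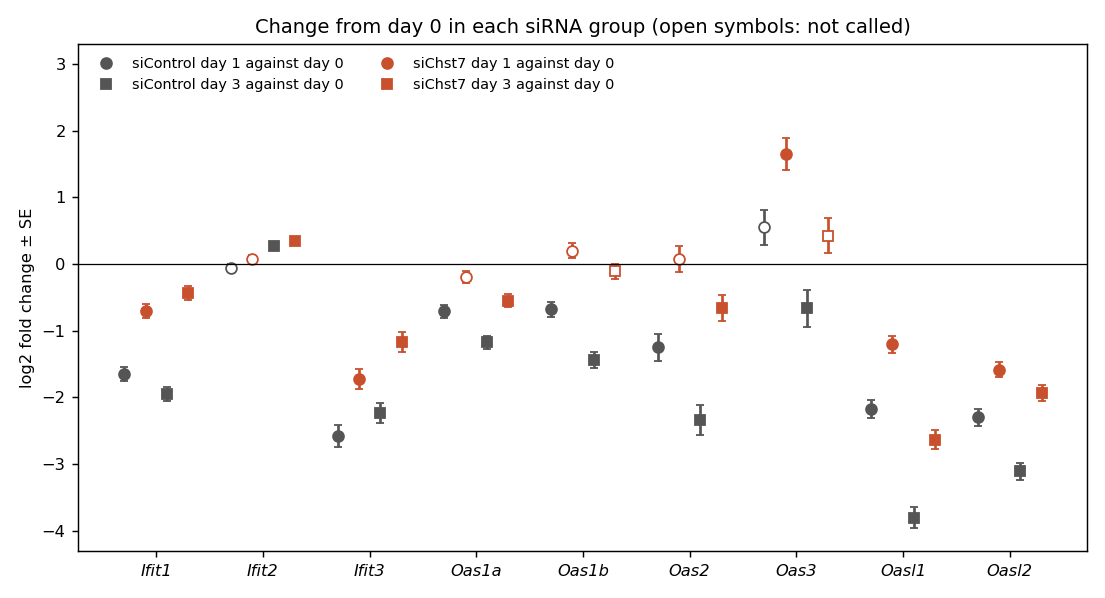
Log2 fold change from day 0 with its SE for each gene, in siControl (grey) and siChst7 (orange), at day 1 (circles) and day 3 (squares), 3 libraries per group. Filled symbols passed edgeR's test at an adjusted p of 0.05, and Oasl1 has the lowest siControl value, -3.80 at day 3 against -2.64 in siChst7.

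The make-up of the set shifted with these changes. Ifit2 made up 11.9% of the summed CPM per kilobase of the 9 genes in siControl day 0, 27.1% at day 1 and 39.5% at day 3, and 14.3%, 22.7% and 28.1% in siChst7. The share of Oasl2 dropped between days 0 and 3, from 20.1% to 6.48% with the control siRNA and from 21.0% to 8.45% with siChst7. The share of Ifit1 was 25.1%, 19.0% and 18.0% in siControl and 23.6%, 21.8% and 27.2% in siChst7. Without Ifit2, the summed CPM of the other 8 genes was 200 to 216 in the siControl day 0 libraries, 63.3 to 79.2 at day 1 and 46.7 to 50.2 at day 3. In siChst7 it was 171 to 208, 106 to 112 and 88.8 to 105, so that the ranges of both siRNAs overlapped at day 0 and were apart at days 1 and 3. In bulk libraries, fewer cells expressing a gene and less of its RNA per cell cannot be told apart.

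**Figure D3:**
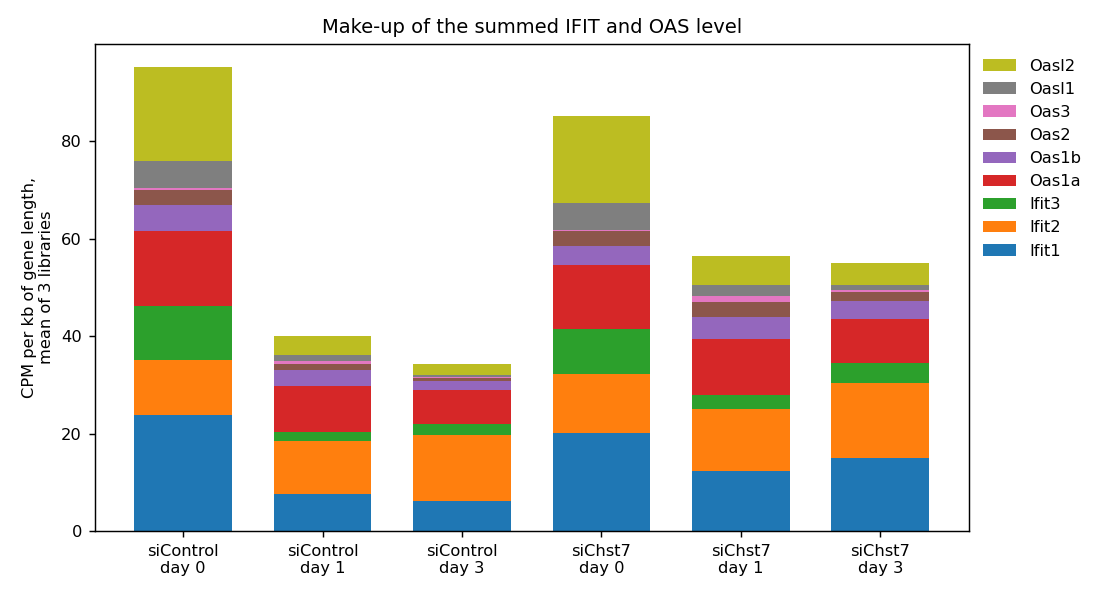
Stacked group means of CPM per kilobase of gene length for the 9 genes (colours) in the 6 groups, each the mean of 3 libraries. The stack is 95.2 in siControl day 0 and 34.4 in siControl day 3, where Ifit2 alone is 39.5% of it, and 55.1 in siChst7 day 3.

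At day 0, before the factors were induced, the knockdown was accompanied by little difference in these genes. Oas1b alone was called, lower by 0.44 ± 0.11 on the log2 scale (edgeR adjusted p = 0.0051), where 13.5% of all genes were called lower. It stood at 9.24, 11.5 and 8.63 CPM in siControl and at 6.78, 6.56 and 8.37 in siChst7, with every siChst7 library below every siControl library. Ifit1 (50.3, 53.3 and 55.7 CPM in siChst7) and Ifit3 (18.1, 18.6 and 18.5) also lay under all siControl libraries, as did 21.2% of all genes in this comparison, but were not called (-0.25 ± 0.10, adjusted p = 0.0665, and -0.26 ± 0.13, 0.168). Ifit1 was called lower under 6 of the other settings, for example by DESeq2 (0.0488). Values for 8 of the 9 genes were below 0, with a median of -0.11 against 0.01 over all genes, and Ifit2 was at 0.11 ± 0.06. Replicate 3 was the highest of the siChst7 day 0 libraries in 7 of the 9 genes, with Oas2 at 15.9 CPM against 9.82 and 8.26, and Oasl2 at 66.9 against 52.2 and 49.4. Without that library Oas1a was also called (-0.35, adjusted p = 0.00648), while without siControl day 0 replicate 2 Oas1b was not (-0.31, 0.0591).

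At day 1, 8 of the 9 genes were higher in siChst7 than in siControl, where 8.86% of all genes were called higher. The median over the 9 was 0.62 against 0.01 over all genes. In 7 of the 8 called genes the 3 libraries of both groups did not overlap, a pattern that 21.3% of all genes showed in this direction. The 9th gene, Oas1a, did not overlap either but just missed the threshold (0.28 ± 0.10, edgeR adjusted p = 0.0517), and was called under 5 alternative settings, for example by DESeq2 (0.0365).

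Oas2, an enzyme with a tandem pair of OAS domains, had the largest day 1 difference. It stood at 3.73, 4.63 and 7.07 CPM in siControl and at 13.2, 12.4 and 10.1 in siChst7, a 2.31-fold higher level (1.21 ± 0.21, edgeR adjusted p = 0.000258). The siChst7 libraries at day 1 lay within the range of their own day 0 libraries, and the siControl libraries lay below theirs. Oas3 was at 1.57, 3.07 and 3.05 CPM in siControl and all siChst7 libraries were above these (1.02 ± 0.24, adjusted p = 0.00411). Oasl1 was at 5.30, 4.86 and 4.90 CPM in siChst7, all above the siControl libraries given above (0.92 ± 0.15, adjusted p = 0.0001042).

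Of the IFIT genes at day 1, Ifit1 was at 19.7, 19.1 and 21.7 CPM in siControl and at 31.9, 29.8 and 36.0 in siChst7, apart in all libraries (0.69 ± 0.11, edgeR adjusted p = 8.714e-05). Ifit3 was at 4.25, 4.72 and 7.83 CPM in siChst7, and its lowest value was under the highest of siControl. Its call (0.60 ± 0.18, adjusted p = 0.0214) rested on single libraries, being lost without siControl day 1 replicate 1 (0.122) or 3 (0.0919) or siChst7 day 1 replicate 3 (0.29, 0.213). Ifit2 differed by 0.24 ± 0.06 and was lost without siControl day 1 replicate 1 (0.0564).

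At day 3 all 9 genes were higher in siChst7 than in siControl, and in all 9 the libraries of the groups did not overlap. Of all genes tested, 23.1% were called higher at this day and 24.2% did not overlap in that direction. The median over the 9 genes was 1.01 against 0.01 over all genes. With the trend on gene length taken out of every library all 9 were still called higher. The 3 listed RNA quality transcripts were higher too (Rn45s by 1.28 ± 0.28, Neat1 by 0.77 ± 0.09 and Malat1 by 0.59 ± 0.09), and Rn45s took 0.605% to 1.96% of the counts in siChst7 day 3 against 0.399% to 0.542% in siControl day 3. The siChst7 day 3 libraries also differed more among themselves, the chi-square statistic over genes, divided by its degrees of freedom, being 22.5 to 59.0 between pairs and 3.50 to 4.13 in siControl day 3. With any 1 of the 3 left out, 8 or 9 genes were called, and the part of RNA quality in the day 3 difference was not tested.

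Ifit1 stood at 14.9, 17.0 and 16.9 CPM in siControl day 3 and at 43.1, 30.2 and 45.1 in siChst7 day 3. The difference was 2.41-fold (1.27 ± 0.11, edgeR adjusted p = 2.378e-08), and replicate 2 was the lowest of the siChst7 libraries. The fit shares its estimate of spread over the 6 groups, so day 3 p-values can understate the wider spread of siChst7 day 3. Under the alternative settings the adjusted p of Ifit1 was at most 0.000963. Oas2 had the largest fold, 2.98 (1.57 ± 0.24, adjusted p = 1.598e-05), from 2.91, 2.23 and 2.16 CPM to 7.84, 7.29 and 6.34. Oas1b went from 3.50, 3.67 and 3.60 CPM to 7.00, 5.92 and 7.28 (0.90 ± 0.13).

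Oasl1 and Oasl2 were 2.17-fold and 2.11-fold higher at day 3, yet both remained far under their day 0 levels. Oasl2 was at 12.6, 17.1 and 14.1 CPM in siChst7 day 3, above the siControl day 3 libraries and below all day 0 libraries of both siRNAs. Oasl1 was at 1.54, 1.67 and 2.45 CPM. Ifit3 was at 7.84, 8.10 and 8.66 CPM in siChst7 (0.81 ± 0.16) and Oas3 at 1.95, 2.86 and 1.77 (1.01 ± 0.28).

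Oas1a and Ifit2 had the smallest day 3 differences. Oas1a was at 13.8, 13.5 and 11.5 CPM in siControl and at 16.6, 15.6 and 18.7 in siChst7 (0.39 ± 0.10, edgeR adjusted p = 0.0034). Ifit2 was at 64.7, 60.8 and 58.1 CPM in siChst7, against 50.7 to 55.3 in siControl (0.19 ± 0.06, adjusted p = 0.0121). The Ifit2 call was lost with scaling by library totals (adjusted p = 0.0602), with no filter (0.0751) and without siControl day 3 replicate 3 (0.0813) or siChst7 day 3 replicate 1 (0.0810).

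**Figure D4:**
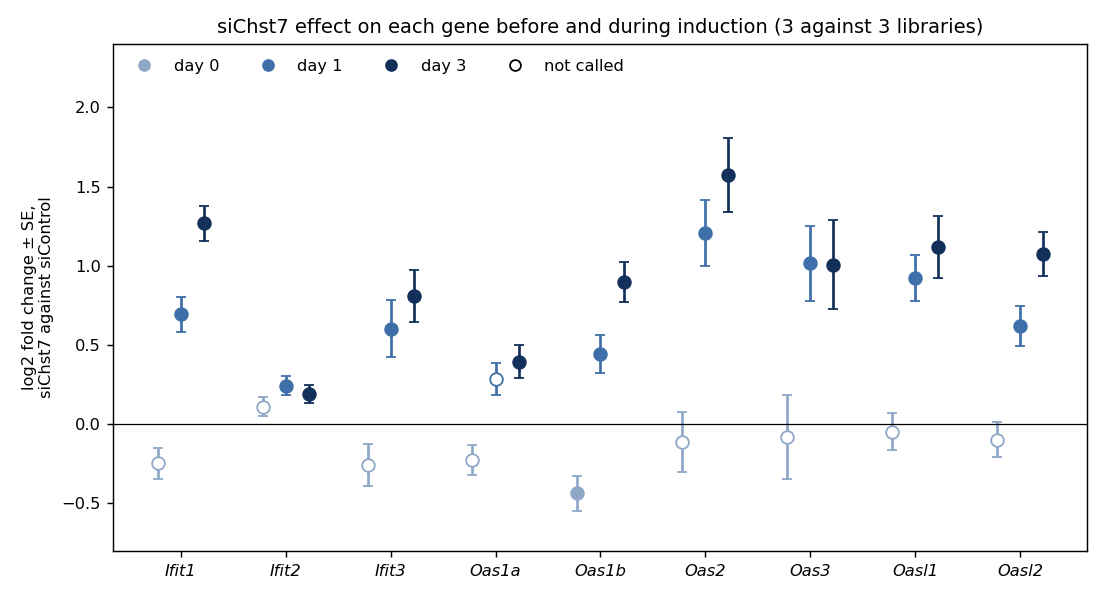
Log2 fold change of siChst7 against siControl with its SE for each gene at days 0, 1 and 3 (light to dark blue), 3 against 3 libraries. Filled points passed edgeR's test at an adjusted p of 0.05, which Oas1b alone did at day 0 (-0.44), and Oas2 has the highest value at day 3 (1.57).

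Whether the knockdown difference itself changed between days was tested in the same fit. From day 0 to day 1 it became higher for 8 of the 9 genes, where 6.2% of all genes were called in that direction, and the median change was 0.88. From day 0 to day 3 it became higher for the same number, beside 20.7% of all genes, with a median of 1.16. Ifit2 was the gene not called in either (0.13 ± 0.08 and 0.08 ± 0.08). Between days 1 and 3 the difference grew for Ifit1 (0.57 ± 0.15, edgeR adjusted p = 0.00774), beside 15.3% of all genes, and the other 8 were not called, of which Oas1b (0.46 ± 0.17) had an adjusted p of 0.0530. At day 3 the knockdown fold was above that at day 1 in 7 of the 9 genes. Without siControl day 1 replicate 1, the count from day 0 to day 1 dropped from 8 to 5. The Oas3 change over that interval (1.10 ± 0.35, edgeR adjusted p = 0.0476) lost its call in most fits with 1 library left out. The Oas3 change from day 0 to day 3 (1.09 ± 0.38, adjusted p = 0.0286) was lost without siControl day 0 replicate 2 (0.0971), siChst7 day 0 replicate 1 (0.0639) or 2 (0.0657), siControl day 3 replicate 2 (0.0825) or 3 (0.0656), or siChst7 day 3 replicate 2 (0.0646).

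Near copies of these genes bear on how the counts can be read. Of the words of 50 bases in the Ifit3 transcripts, 51.2% also occur in Ifit3b, and 57.6% of those of Oas1a occur in another gene, in the main Oas1g, whereas Ifit1 shares 7.13%, Oas1b 2.78%, and Ifit2, Oas2 and Oasl1 share none. How reads that map to several genes were counted is not given in the sources used here, so the values of Ifit3 and Oas1a are uncertain to that extent. Oas2 and Oasl1 also overlap a gene on the opposite strand, and the strand setting is not given either. Ifit3b stood at 10.5 to 12.8 CPM in siControl day 0, 1.02 to 1.15 at day 1 and 0.253 to 0.960 at day 3, and was higher in siChst7 at day 3 (1.42 to 2.45 CPM, 1.95 ± 0.33, edgeR adjusted p = 6.115e-05). Oas1g was at 13.7 to 15.3, 6.26 to 8.37 and 5.02 to 5.62 CPM over the same siControl days and was higher in siChst7 at day 1 (0.37 ± 0.10) and at day 3 (0.71 ± 0.10).

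Of the 9 further IFIT and OAS genes in the table, all of which were tested, 4 were higher in siChst7 at day 1, beside 8.86% of all genes, and 3 at day 3, beside 23.1%. From day 1 to day 3 in siChst7, 2 of them were higher (median 0.33), beside 31.7% of all genes. These were the low transcripts Oas1e and Oas1f, while Oas1g (-0.14 ± 0.10) and Oas1c (-0.01 ± 0.14) were not called. Ifit1bl2, a low transcript at 2.72 to 3.50 CPM in siControl day 0, was higher in siChst7 than in siControl at days 1 and 3 (0.77 ± 0.26 and 1.02 ± 0.25). Oas1c went the other way in time, from 4.68 to 5.96 CPM at day 0 to 8.22 to 9.26 at day 3 in siControl (0.76 ± 0.14, edgeR adjusted p = 6.091e-05), and was higher in siChst7 at day 1 (0.42 ± 0.14, adjusted p = 0.0439), with 0.18 ± 0.14 and no call at day 3. Oas1e had no counts in siControl day 0 and reached 0.781 to 0.954 CPM at day 3. Ifit1bl1, Oas1d, Oas1f and Oas1h stayed under 0.7 CPM in every library.

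Of 4 listed transcripts of the oligoadenylate pathway downstream of the OAS enzymes, 1 was higher in siChst7 at day 3, beside 23.1% of all genes, and the median was -0.08. This was Abce1, known as a ribosome recycling factor (0.30 ± 0.07, edgeR adjusted p = 0.000995). Pde12, which degrades oligoadenylates, was lower in siChst7 at day 0 (-0.18 ± 0.05), and Cnp was not called at any day.

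Interferon transcripts themselves were near the floor of detection. Over all 18 libraries together there were 23 reads of Ifnb1, 16 of Ifna4, 7 of Ifnk, 6 of Ifnl3, 3 of Ifng and 1 of Ifnl2. Of the 26 listed genes for interferons, their receptors and their signalling, 18 could be tested. Of these, 8 were higher in siChst7 at day 1, beside 8.86% of all genes. At day 3, 5 were higher and 5 lower, beside 23.1% and 21.6% of all genes, with a median of 0.01. Among those with the highest levels, the receptor chain Ifnar1 and the kinase Jak1 were lower in siChst7 at day 3 (-0.27 ± 0.04 and -0.23 ± 0.04), as was the receptor chain Ifngr2 (-0.22 ± 0.04). Of 16 tested sensors of RNA and DNA, 5 were higher and 2 lower at day 3, beside the same 23.1% and 21.6%, with a median of 0.08.

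Most of the other interferon-stimulated genes fell in siControl and were higher in siChst7 at day 3. Of 41 tested, 35 were lower at day 1 than at day 0 in siControl, beside 30.8% of all genes, with a median of -0.79. From day 1 to day 3 in siChst7, 20 of the 41 were higher and 13 lower, beside 31.7% and 33.5% of all genes, with a median of 0.30. The 9 IFIT and OAS genes had 3 higher, 6 lower and a median of -0.35 over that interval. In siChst7 against siControl 4 of the 41 were higher and 3 lower at day 0 (median -0.05), beside 13.9% and 13.5% of all genes. At day 1, 18 were higher (median 0.25), beside 8.86% of all genes. At day 3, 31 were higher and 2 lower (median 0.62), beside 23.1% and 21.6%. Among the 4 with the highest levels, Ifitm3, a membrane protein that blocks virus entry, was at a mean of 87.1 CPM in siControl and 254 in siChst7 at day 3 (1.54 ± 0.14). Its siChst7 day 3 libraries were far apart, at 266, 169 and 326 CPM. Ifitm3 had not been called at day 1 (0.12 ± 0.14). Ifi27 (1.14 ± 0.09), Bst2 (0.94 ± 0.08), which tethers virus particles to the cell, and Lgals3bp (0.43 ± 0.08) were also higher at day 3. The difference between days 1 and 3 became higher for 18 of the 41, against 1 of the 9 IFIT and OAS genes, and whether these shares differ was not tested.

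**Figure D5:**
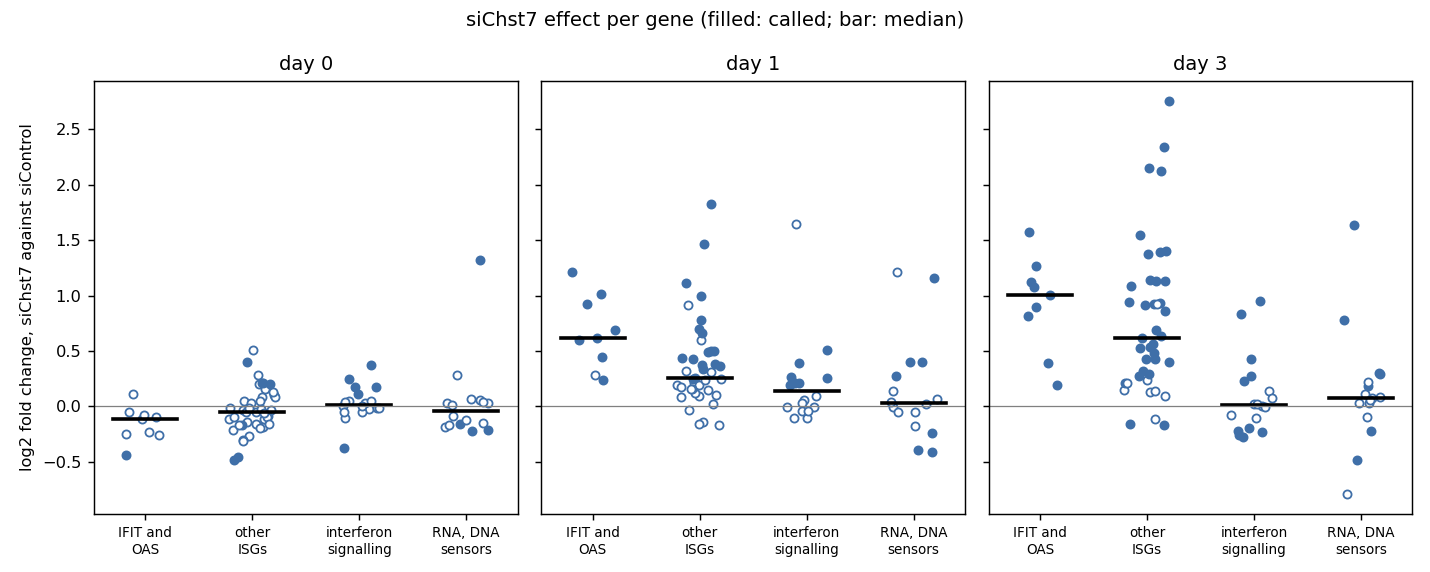
Log2 fold change of siChst7 against siControl for each tested gene (points) of 4 lists at days 0, 1 and 3, with the list median as a bar; filled points passed edgeR's test at an adjusted p of 0.05. The median of the IFIT and OAS genes goes from -0.11 to 0.62 and 1.01, and that of the other interferon-stimulated genes (ISGs) from -0.05 to 0.25 and 0.62.

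Of markers of blood cells, some were at levels like those of the IFIT and OAS genes and others near 0. The summed CPM of 8 leukocyte and macrophage markers was 49.0 to 54.2 in siControl day 0, 18.6 to 21.4 at day 1 and 28.0 to 29.9 at day 3, and 61.9 to 66.0, 23.9 to 25.3 and 26.3 to 30.3 in siChst7. Of the 5 that could be tested, 4 were lower at day 1 than at day 0 in siControl, beside 30.8% of all genes. The other, Csf1r, was higher (1.74 ± 0.26). In siChst7 against siControl at day 1, 3 were higher, beside 8.86% of all genes. Apart from Csf1r, these were the directions of most of the IFIT and OAS genes, while at day 3 the sums of both siRNAs overlapped. Most of the sum was Cd14, at means of 23.7 CPM in siControl and 34.9 in siChst7 at day 0, and Cd68, at 18.0 and 20.5. Cd14 was higher in siChst7 at day 0 (0.56 ± 0.08) and day 1 (0.37 ± 0.09) and stood at -0.06 ± 0.09 at day 3. Ptprc, the pan-leukocyte marker, had group means of at most 0.0689 CPM, and the macrophage marker Adgre1 was at 0 in 5 of the 6 groups. The part of these markers in the IFIT and OAS changes was not tested. Summed epithelial markers stayed at or under 2.72 CPM and endothelial markers at or under 4.07.

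Over the 6 group means, the genes whose pattern was nearest to the median pattern of the 9 were sought among 9933 genes with a mean of at least 5 CPM. Distance was the root mean square of the differences in centred log2(CPM + 1). The nearest was Irgm2, an interferon-inducible GTPase, at 0.0685, followed by Serpinb9b (0.0828), Oas1g (0.102), Ppid and Ifi204 (both 0.118), Irf7 (0.131), and Chchd4 and Cntnap1 (both 0.148). Of the 9 themselves, Oas1a was nearest at 0.193 and Oas3 farthest at 0.647, with Oasl2 (0.612), Oasl1 (0.605) and Ifit2 (0.563) close to it. Irf7, the transcription factor that drives interferon genes, was picked out here for this likeness over the same groups. Its course therefore follows from the choice and is no separate support. Its mean fell from 25.2 CPM to 8.22 in siControl between days 0 and 3. In siChst7 it was higher than in siControl by 0.39 ± 0.13 at day 1 and 0.83 ± 0.13 at day 3. The single nearest gene was Ifi204 for Ifit1 (0.114), Ascc1 for Ifit2 (0.0442) and Tnfaip3 for Ifit3 (0.215). For the OAS genes it was Tma16 for Oas1a (0.0609), Apol9a for Oas1b (0.114) and Defb48 for Oas2 (0.172). It was Fbxo30 for Oas3 (0.212), Rgs16 for Oasl1 (0.142) and Steap1 for Oasl2 (0.101).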

How the data were processed

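Messenger RNA of 18 libraries in 6 groups was sequenced after poly-A selection, per the labels' protocols. The deposited table held raw read counts per gene. HISAT2, Subread, featureCounts, DESeq2 and mm10 are named by the submitters' processing notes, while no source used here states versions, strand setting or the handling of reads mapping to several genes.

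Counts were tested with edgeR 4.0.16 (R 4.3.3): filterByExpr (13802 of 24514 genes kept), TMM scaling, and 1 quasi-likelihood fit over the 6 groups without covariates (two-sided; biological coefficient of variation 5.75%), with 12 contrasts, each adjusted by Benjamini-Hochberg over all genes tested and called below 0.05. SE is the log2 change divided by the root of F. CPM used TMM-scaled totals, and lengths were the deposited ones. On counts simulated for the day 0 knockdown comparison, 197 of 200 genes changed 2-fold were recovered among 13550, with 8 false calls. The changed genes were drawn from those with higher mean counts, and only siChst7 day 0 was changed. Recovery of smaller changes or of genes with low counts was not simulated. P-values measure the spread between these samples of 1 line. Alternatives were other scalings, filters, DESeq2 1.42.0, fewer libraries, a replicate block, each library left out and, added after the data were seen, removal of the gene length trend. The 9 genes and all lists were chosen with earlier results of these data known. Named genes were the 9, every further IFIT, OAS and oligoadenylate pathway gene of the lists, the 4 highest of 2 lists and the nearest patterns; Irf7 was added for its place among the latter, and 2 genes that this rule takes are not reported here.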

Additional observations from a re-analysis of the deposited data

Results flagged for a closer look

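The siChst7 difference from siControl changed between days by a test of the change itself in the genes named here; values are changes in log2 difference from edgeR's test. From day 0 to day 1 it grew by 0.94 for Ifit1, 0.86 for Ifit3, 0.51 for Oas1a, 0.88 for Oas1b, 1.32 for Oas2, 1.10 for Oas3, 0.97 for Oasl1 and 0.72 for Oasl2. From day 0 to day 3 it grew by 1.51 for Ifit1, 1.07 for Ifit3, 0.62 for Oas1a, 1.33 for Oas1b, 1.69 for Oas2, 1.09 for Oas3, 1.16 for Oasl1 and 1.17 for Oasl2. From day 1 to day 3 it grew by 0.57 for Ifit1. The comparisons with day 0 share the same day 0 libraries. Both Oas3 calls were lost in a number of fits with 1 library left out.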

How the results depend on the processing

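Counts of the 9 genes called within 1.5 times of the main count were found in all comparisons except 3. For siChst7 against siControl at day 0 the count went from 1 to 2 with library totals, a stricter filter, DESeq2 or the length trend removed, to 4 with no filter or only the compared libraries, and ranged from 0 to 3 with 1 library left out. For the difference between days 1 and 3 it went from 1 to 2 with no filter or only the compared libraries and ranged from 1 to 3 with a library left out. For that between days 0 and 1 it ranged from 5 to 8. Values that changed sign, none of them called, were Oasl1 at day 0 (0.010 with library totals), Oas3 between days 1 and 3 (0.019 with the length trend removed) and Ifit2 between days 0 and 3 (-0.028 with library totals). With 1 library left out, signs changed within these ranges: Oas2 (-0.43 to 0.067) and Oas3 (-0.30 to 0.12) at day 0, Oas2 from day 0 to 1 (-0.11 to 0.39) and Oas1b from day 0 to 3 (-0.18 to 0.0010) in siChst7, and, for the change between days 1 and 3, Ifit3 (-0.011 to 0.52), Oas1a (-0.0031 to 0.17), Oasl1 (-0.052 to 0.31) and Oas3 (-0.26 to 0.24). Causes were not tested. For Oas3, the call on the change in knockdown difference from day 0 to day 1 (adjusted p = 0.0476) was lost with library totals (0.0534) or a replicate block (0.0645). It was also lost with upper quartile scaling and in most fits with 1 library left out (up to 0.159). Scaling by library totals moved the median of all genes from -0.05 to 0.10 in siControl at day 3 against both earlier days and from 0.01 to 0.12 in siChst7 from day 1 to 3. It also moved the share of called genes that were higher, to 69.4% from 50.6% in the day 0 knockdown, to 65.0% from 41.4% and 57.8% from 46.2% in siControl at day 3 against days 1 and 0, to 60.9% from 48.6% in siChst7 from day 1 to 3, and to 30.2% from 53.0% and 35.7% from 53.3% in the differences between days 0 and 1 and days 0 and 3. Same-numbered replicates did not deviate together (correlations from -0.01 to 0.07, own number best in 4 of 9), and a replicate block gave 2 called genes at day 0 in place of 1 and changed no other count by over 1.5 times. The planned protein comparison was not run. Depth limits Oas3 and the rarer copies, at a few CPM.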
